A study of Mus musculus with 16 samples.

Results

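Heat shock chaperones were followed at the transcript level in antigen-binding, memory-phenotype B cells of mice with 2 copies or 1 copy of the ZSDAT reporter allele of Zfp318. The set held 10 genes, Hspa1a, Hspa1b, Hsph1, Dnajb1, Hspe1, Hspd1, Bag3, Hsp90aa1, Hspa8 and Hsf1, taken by symbol from the 22675 genes that could be joined between the deposited count tables. All 10 were found, and 8 of them passed the filter on low counts, as did 10687 genes in all. Hspa1a and Hspa1b did not pass it.

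The 16 libraries formed 4 groups of 4. KOTP and KOTN were tdTomato-positive and tdTomato-negative cells of homozygous mice (Zfp318 ZSDAT/ZSDAT), and HetTP and HetTN were the same populations of heterozygous mice (Zfp318 ZSDAT/+). All groups were C57BL/6 and carried AID-Cre, a recombinase under the control of the gene for activation-induced deaminase, together with the B1-8hi heavy chain and GFP. All had received NP-OVA with LPS and alum, and spleens were taken at day 7. The sort kept NIP-binding B220+ cells with CD38 and without CD138, GL7, FAS or surface IgD, about 1000 cells per library, and the libraries were made with Smart-seq2, a full-length method primed on the poly(A) tail. Ages and the animals behind each library are not stated in the labels. The tests therefore weigh differences against the variation among these libraries, which may be technical.

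Heat shock proteins keep other proteins folded. HSP70 proteins bind exposed hydrophobic stretches and are driven by J-domain partners such as Dnajb1 and by nucleotide exchange factors such as Hsph1 and Bag3, while HSP90 acts later on client proteins and the Hspd1-Hspe1 chaperonin encloses proteins in mitochondria. The transcription factor HSF1 switches on the inducible members of the family under proteotoxic stress, by binding heat shock elements, inverted repeats of the motif nGAAn. In lymphocytes, activation and the handling of tissue before lysis are both known to move these transcripts.

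Total counts ran from 7748787 to 14325276 in the KO libraries and from 8099655 to 15742445 in the Het libraries. Zfp318 itself matched the labels, at 0.913 to 2.92 CPM in KOTP, 0.469 to 5.82 in KOTN, 83.5 to 120.8 in HetTP and 71.0 to 152.8 in HetTN (CPM, counts scaled to a common library total after TMM normalisation). All 7 B-cell markers checked had counts in every group. The Het libraries varied more: their biological coefficient of variation was 0.98, against 0.211 for the KO libraries. The share of tested genes without any count was 1.52% to 2.34% per KO library and 7.02% to 13.6% per Het library. Each genotype was deposited as a table of its own, and genotype cannot be told apart from a batch or from the way the counts were made. Markers of other cells also moved with the genotype. The summed CPM of 10 T-cell markers was 2.39 to 4.51 in KOTP and 2.22 to 3.71 in KOTN, against 128.8 to 601.4 in HetTP and 209.9 to 454.1 in HetTN. Of these markers, 5 were at 0 in KOTP (Cd3e, Cd3g, Cd4, Cd8a and Cd8b1), 5 in KOTN (Cd3e, Trac, Cd4, Cd8a and Cd8b1), 1 in HetTP (Cd4) and 2 in HetTN (Cd4 and Cd8b1). Sums over 10 macrophage markers, all counted in every group, were 76.6 to 109.1 and 104.8 to 154.9 in KOTP and KOTN, against 132.3 to 731.1 and 507.1 to 1373.0 in HetTP and HetTN. Sums over 5 plasma cell markers were 79.4 to 114.7 and 110.8 to 219.7 in KOTP and KOTN, against 235.8 to 323.5 and 272.2 to 845.8 in HetTP and HetTN, and those over the B-cell markers 14479.0 to 16153.7 and 14479.3 to 15021.7, against 9250.4 to 11338.9 and 10515.1 to 13775.9. Sums over 3 dendritic cell markers were 47.3 to 63.9 and 53.8 to 62.2 in KOTP and KOTN, against 15.3 to 34.7 and 20.7 to 43.6 in HetTP and HetTN, with Siglech at 0 in HetTN. The part of these cells in the genotype comparisons of the chaperone genes was not tested.

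Where a heat shock element lies close to the start of a member was read from RefSeq promoter windows (GRCm38.p6) of 300 bases, 250 before and 50 after each start, of which 7 members had one or more. The 3-unit element GAANNTTCNNGAA, searched on both strands, was in the windows of 3 of these 7, Hspd1, Hspe1 and Hsph1, and in 0.603% of all 32851 windows. Its 2-unit parts GAANNTTC and TTCNNGAA, which overlap it, were in the windows of 6 and 3 members and in 7.86% and 8.52% of all windows. Hspd1 and Hspe1 are neighbours on chromosome 1 that are transcribed away from each other, and 1 stretch between their starts serves both windows. It is shown on either strand, with the run of heat shock units in capitals, because it holds the element for 2 members at once. It lies at chr1:55088053-55088082 (GRCm38.p6), 95 to 66 bases before an Hspe1 start and 150 to 121 bases before an Hspd1 start, and in GENCODE M21 it also falls in a 5′ UTR exon of 1 Hspd1 transcript.
Hspe1 strand (plus): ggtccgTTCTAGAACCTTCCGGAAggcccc
Hspd1 strand (minus): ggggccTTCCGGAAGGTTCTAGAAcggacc

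The Hsph1 element lies just after a start of the gene, 15 to 27 bases from that start. The stretch around it is chr5:149636280-149636309 on the minus strand, 6 to 35 bases from the same start. It is given for comparison with the shared stretch, again with the element in capitals.
Hsph1 strand (minus): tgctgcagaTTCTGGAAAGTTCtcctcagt

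Levels were compared between genes per kilobase of coding sequence. Of the stretches of 50 coding bases, 90.7% in Hspa8, 85.4% in Hsp90aa1, 74.3% in Hspe1 and 63.7% in Hspd1 also occur in other genes. Dnajb1, Hsph1, Hsf1 and Bag3 share none. The treatment of multiply mapping reads is not given in the sources used here, so the order of levels between these genes is uncertain. In KOTP and KOTN cells the order was Hspe1, Hspa8, Hsp90aa1, Dnajb1, Hspd1, Hsf1, Hsph1 and Bag3, and no neighbours among these 8 overlapped between libraries. Hspe1 stood at 849.3 mean CPM per kb in KOTP and 813.5 in KOTN, followed by Hspa8 at 719.9 and 728.7 and Hsp90aa1 at 256.8 and 264.3. In the Het cells Hspa8 came first, at 853.7 mean CPM per kb in HetTP and 813.4 in HetTN, but its libraries overlapped those of Hspe1, the next gene, in both groups. Hspd1 stood above Dnajb1 in the Het cells, at 93.1 against 65.9 in HetTP and 91.0 against 66.6 in HetTN, again with overlapping libraries. The KO cells had the opposite order, with Dnajb1 at 87.2 mean CPM per kb in KOTP and 82.4 in KOTN against 56.4 and 53.2 for Hspd1. Hsf1 was between 32.3 and 56.1 mean CPM per kb over the 4 groups and Hsph1 between 11.3 and 20.8.

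**Figure D1:**
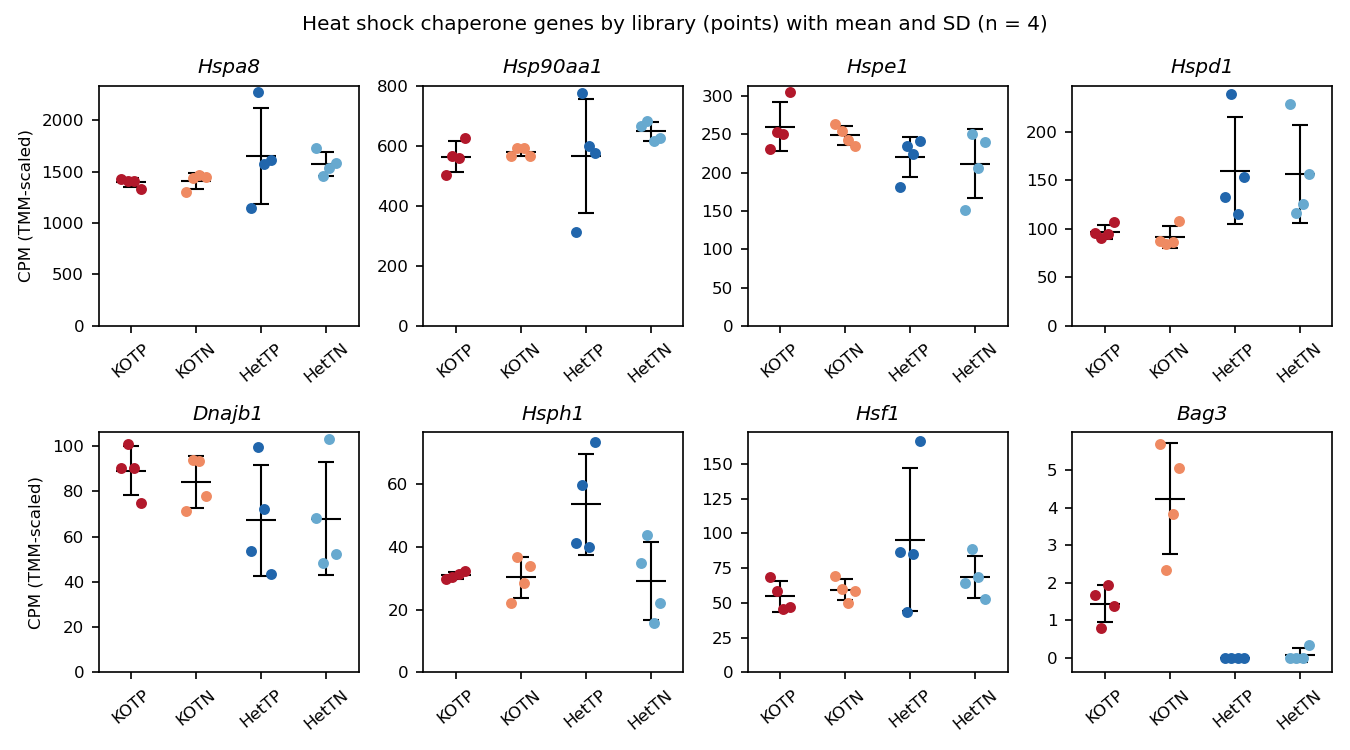
Level of 8 heat shock chaperone genes in each library, in CPM on linear axes that differ between genes, with KOTP, KOTN, HetTP and HetTN from left to right. Points are libraries, and the bars give the mean and SD of 4. Hspd1 is lower in all 8 KO libraries than in any Het library, and Bag3 is counted in all 8 KO libraries and in 1 Het library.

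Hspa8, the constitutive HSP70 of the cytosol, was the most counted member. In CPM, its libraries 1 to 4 read 1432.8, 1408.2, 1409.6 and 1329.8 in KOTP and 1298.9, 1437.4, 1468.7 and 1443.9 in KOTN. They read 1150.4, 2276.2, 1575.5 and 1615.6 in HetTP and 1729.9, 1453.7, 1533.0 and 1588.7 in HetTN. The 8 KO libraries lay within a narrow band, and HetTP libraries 1 and 2 held the lowest and the highest value of the whole series. Hspa8 was not called in any comparison, and its log2 fold change was -0.02 (SE 0.06, adjusted p = 0.961, edgeR quasi-likelihood test) for KOTP against KOTN, with a 95% interval of -0.15 to 0.11. Of its coding 50-base words, 90.7% also occur in transcripts of 13 other genes in GENCODE M21, most of all Gm15459. The treatment of multiply mapping reads is not given in the sources used here, so this level is uncertain.

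Hspa1a and Hspa1b, the stress-inducible HSP70 genes, lie side by side on chromosome 17 (34969190 to 34972156 and 34956436 to 34959238, minus strand, GRCm38). They were almost without counts. Their summed count in libraries 1 to 4 was 2, 1, 0 and 5 in KOTP and 4, 1, 6 and 2 in KOTN, against 0, 0, 2 and 0 in HetTP and 0, 14, 2 and 0 in HetTN. The highest value, in HetTN library 2, came from 13 counts of Hspa1b and 1 of Hspa1a. In a library, the 3 counts taken as the floor correspond to between 0.178 and 0.416 CPM, a limit that covers counting error only. The coding sequences of the pair are 99.4% identical, with 11 differing positions of 1926 aligned, 3 of them gaps, and an identical run of 638 bases. Of the 50-base words in Hspa1a, 87.1% also occur in transcripts of other genes, and in Hspa1b 82.3% do. The stretch from coding position 1357 to 1416 shows how little separates them, with the differing bases in capitals.
Hspa1a: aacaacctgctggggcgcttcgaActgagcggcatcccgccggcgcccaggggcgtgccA
Hspa1b: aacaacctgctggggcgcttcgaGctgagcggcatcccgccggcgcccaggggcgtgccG

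Such reads may have been dropped or split by the counting, so the low counts do not show that the genes were silent.

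Hsph1, the HSP110 exchange factor of HSP70 (chromosome 5, 149614287 to 149636376, minus strand), shares no 50-base word with another gene. Its libraries 1 to 4 read 29.9, 30.3, 31.2 and 32.2 CPM in KOTP and 22, 36.9, 28.4 and 33.8 CPM in KOTN. They read 41.3, 59.7, 39.8 and 73.5 CPM in HetTP and 34.7, 43.8, 15.8 and 22.1 CPM in HetTN. HetTP held the 2 highest values of the series, its libraries lay above all those of KOTP, and it overlapped HetTN.

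Dnajb1, the major J-domain partner of HSP70 after heat shock, had libraries 1 to 4 at 90.1, 100.9, 90.1 and 74.6 CPM in KOTP and 71.1, 93.8, 93.5 and 77.7 CPM in KOTN. They stood at 53.8, 99.3, 72.3 and 43.3 CPM in HetTP and 68.2, 48.4, 102.9 and 52.2 CPM in HetTN. All 4 groups overlapped, the Het libraries more widely spread than the KO libraries. Dnajb1 also shares no 50-base word with another gene.

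Bag3, which links HSP70 to the autophagic removal of proteins (chromosome 7, 128523616 to 128546981, plus strand), was counted at 13, 6, 17 and 18 in KOTP libraries 1 to 4 and at 41, 20, 34 and 42 in KOTN libraries. It had no count in any HetTP library and 0, 0, 0 and 4 in the HetTN libraries. In CPM this was 1.45 ± 0.49 in KOTP, 4.23 ± 1.47 in KOTN and 0.0901 ± 0.18 in HetTN (SD, n = 4), with HetTP at 0. Among the tested genes, 91 (0.852%) had a count in all 8 KO libraries and in at most 1 Het library, and 4 genes had the converse pattern.

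The mitochondrial chaperonin genes Hspe1 (55088132 to 55091307, plus strand) and Hspd1 (55077835 to 55088243, minus strand) have the stretch shown above in both of their windows. Hspe1 had libraries 1 to 4 at 231.2, 252.8, 250.0 and 305.6 CPM in KOTP and 263.8, 254.3, 242.8 and 234.9 CPM in KOTN. It had 182.0, 234.7, 223.9 and 241.1 CPM in HetTP and 150.8, 250.0, 206.7 and 240.5 CPM in HetTN, and its groups overlapped in every comparison. Hspd1, which forms the barrel of the chaperonin, had 95.9, 90.4, 94.4 and 107.0 CPM in KOTP and 87.5, 84.7, 85.9 and 107.9 CPM in KOTN.

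Its Het values were 132.4, 239.1, 115.5 and 153.1 CPM in HetTP and 228.2, 116.0, 125.2 and 156.5 CPM in HetTN. No KO library of Hspd1 reached the lowest Het library. Of the 50-base words of Hspd1, 63.7% also occur in 9 other genes, chiefly Hspd1-ps3, and of those of Hspe1 74.3% do.

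Hsp90aa1, the inducible cytosolic HSP90 (chromosome 12, 110690605 to 110702728, minus strand), read 503.8, 565.7, 561.1 and 628.6 CPM in KOTP and 568.2, 593.7, 595.2 and 567.5 CPM in KOTN. It read 312.6, 777.4, 601.3 and 577.4 CPM in HetTP and 668.5, 684.1, 617.1 and 627.3 CPM in HetTN. HetTP library 1 was the lowest and HetTP library 2 the highest of all 16, as for Hspa8. Of its 50-base words 85.4% are shared with 4 other genes.

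Hsf1, the transcription factor itself (chromosome 15, 76477422 to 76501913, plus strand), is regulated mainly at the protein level. Its transcript stood at 68.9, 58.8, 45.3 and 46.7 CPM in KOTP and 69.1, 60.1, 50.2 and 58.5 CPM in KOTN. It stood at 86.4, 43.6, 85.3 and 166.4 CPM in HetTP and 64.3, 89.0, 68.7 and 52.9 CPM in HetTN. HetTP library 4, which was also the highest for Hsph1, lay far above the other libraries, and all groups overlapped.

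The spread of the 7 tested members other than Bag3 was taken as the coefficient of variation within a group. Its median was 9.04% in KOTP and 12.0% in KOTN, against 33.8% in HetTP and 21.9% in HetTN. All tested genes with at least 20 CPM had medians of 11.4%, 11.4%, 29.7% and 34.3% in the same groups.

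KOTP cells were compared with KOTN cells to ask whether reporter activity separates the chaperone genes among homozygous cells. None of the 8 tested members was called (adjusted p under 0.05, edgeR quasi-likelihood test), where 2.17% of all genes were. DESeq2 and limma voom called none either. Of all 10687 genes tested, 1235 had an unadjusted p under 0.05, and 1 of the members did. That gene was Bag3, at -1.53 on the log2 scale (SE 0.51, unadjusted p = 0.00618, adjusted p = 0.142), and all 4 KOTP libraries lay below all 4 KOTN libraries. The groups did not overlap for 7.22% of all tested genes. From 54 counts in KOTP and 137 in KOTN the ratio was 0.35, with a counting interval of 0.251 to 0.483 that leaves out the spread between libraries. The other 7 members had log2 fold changes from -0.12 for Hsf1 to 0.08 for Dnajb1 and Hspd1. Their 95% intervals reached at most from -0.41 (Hsf1) to 0.37 (Hsph1). The median over the 8 members was 0.01, against -0.01 over all genes tested.

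The same question in heterozygous cells, HetTP against HetTN, gave no call among the 8 members (edgeR) and none with an unadjusted p under 0.05. No gene at all was called in this comparison (0.0%), where 663 genes had an unadjusted p under 0.05. DESeq2 called 52 genes and limma voom 0, with no member among them. The largest difference of a well-counted member was in Hsph1, at 53.6 ± 16.1 CPM in HetTP and 29.1 ± 12.6 CPM in HetTN (SD, n = 4), or 0.88 on the log2 scale (SE 0.42, unadjusted p = 0.0525, adjusted p = 0.806). Hsf1 had 0.47 (SE 0.37, adjusted p = 0.982). Without HetTP library 4 the Hsf1 value was 0.06. The remaining well-counted members lay between -0.19 (Hsp90aa1) and 0.07 (Hspa8), with 95% intervals that reached from -0.77 to 0.74 for Dnajb1, the widest of them.

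**Figure D2:**
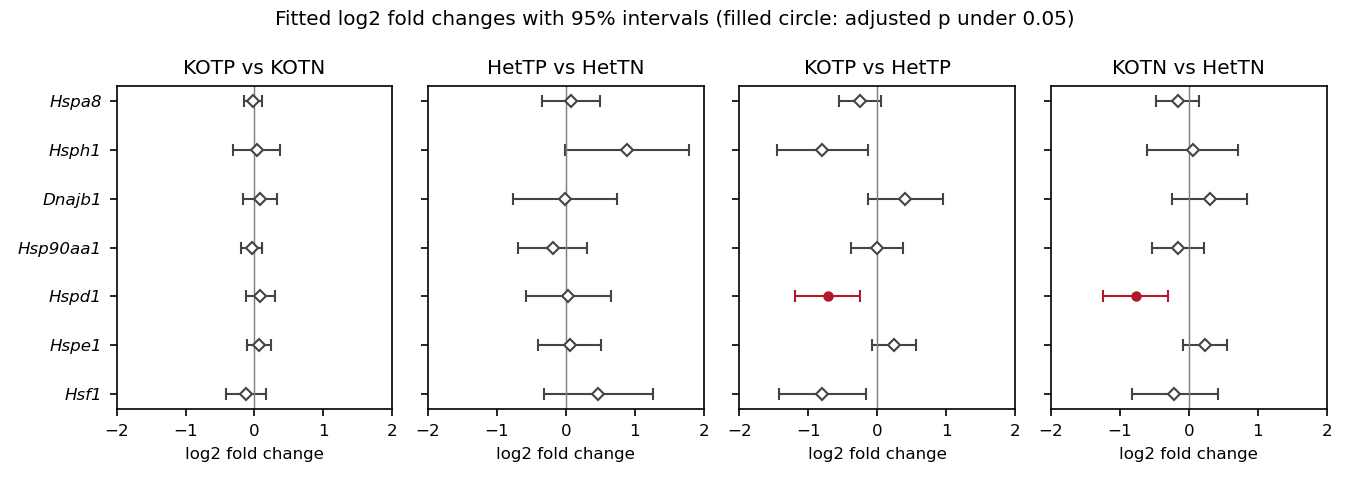
Log2 fold change (linear axis) of 7 members in the 4 comparisons, with 95% intervals from the edgeR fit; filled circles are adjusted p under 0.05. Bag3 is left out since a group without counts has no finite fold change. Hspd1 is below 0 in both comparisons of KO with Het cells, and the Het intervals are wider than those within KO cells.

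Whether the tdTomato effect differed between the genotypes was tested directly as a difference of differences, KO minus Het. None of the 8 members was called by edgeR, none had an unadjusted p under 0.05, and DESeq2 and limma voom called none, where 0.122% of all genes were called. Hsph1 came nearest, with a difference of -0.85 (SE 0.44, unadjusted p = 0.0685, adjusted p = 0.591). Its tdTomato effect was 0.03 in KO and 0.88 in Het cells on the log2 scale.

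Homozygous and heterozygous tdTomato-positive cells were compared next, as KOTP against HetTP. Of the 8 members, 2 were called, where 10.2% of all genes were. Hspd1 was lower, at 96.9 ± 7.11 CPM in KOTP and 160.0 ± 54.9 CPM in HetTP (SD, n = 4), which is -0.72 on the log2 scale (SE 0.23, adjusted p = 0.0494). Bag3 was higher (adjusted p = 0.0156), and 54 counts in KOTP against 0 in HetTP made it at least 27.9-fold higher when HetTP was set to the floor of 3 counts over the group. Bag3 passed the filter through the KO libraries alone, so its inclusion favoured a higher value in KO cells. Hsph1 and Hsf1 were not called at -0.80 each (SE 0.31 and 0.30, adjusted p = 0.128 and 0.106), the first with groups that did not overlap. Without HetTP library 2 Hsf1 stood at -1.04 and was called (adjusted p = 0.016), and without HetTP library 4 it stood at -0.39 (adjusted p = 0.46). Library totals without a scaling factor shift the KOTP and HetTP scales by -0.23 (log2) against each other, which puts Hspd1 at -0.96, and bring the calls to 5, adding Hsph1, Hspa8 and Hsf1. Groups did not overlap for 3 members (Bag3 higher, Hspd1 and Hsph1 lower), where 20.2% of all tested genes had no overlap.

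Among tdTomato-negative cells, KOTN against HetTN, the same 2 members were called, where 10.5% of all genes were. Hspd1 stood at 91.5 ± 11.0 CPM in KOTN and 156.5 ± 50.9 CPM in HetTN (SD, n = 4), or -0.77 on the log2 scale (SE 0.23, adjusted p = 0.0358). Bag3 had 137 counts in KOTN and 4 in HetTN, a 48.9-fold ratio with a counting interval of 18.7 to 182 (adjusted p = 0.0429). All 4 counts in HetTN came from library 4, and here too Bag3 had passed the filter through the KO libraries alone. Hsp90aa1 did not overlap between the groups and was not called (log2 fold change -0.16, SE 0.18, adjusted p = 0.683), and Hsph1 had 0.06 (SE 0.31, adjusted p = 0.953). With Bag3 and Hspd1 this made 3 members without overlap, against 19.8% of all tested genes.

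The Hspd1 and Bag3 calls were close to the threshold. For Hspd1 the adjusted p ranged from 0.014 to 0.0814 over the scalings, filters, tools and fits tried in tdTomato-positive cells and from 0.00896 to 0.0638 in tdTomato-negative cells. Its log2 fold change kept its sign throughout, between -0.96 and -0.64 and between -0.88 and -0.71. Leaving out HetTP library 2, the highest of its group, gave -0.46 (adjusted p = 0.195), and leaving out HetTN library 1 gave -0.54 (adjusted p = 0.11). The call of Hspd1 was also lost without any 1 KO library, at adjusted p between 0.0828 and 0.127 in KOTP and between 0.0521 and 0.102 in KOTN, and without HetTP library 4 (0.0726) or HetTN library 4 (0.0522). For Bag3 the tdTomato-positive call was lost under limma voom (adjusted p = 0.0822), and the tdTomato-negative call held in 1 of 8 leave-outs, that of HetTN library 4 (adjusted p = 0.01), with 0.0663 to 0.0949 in the others, and in 5 of the 9 other settings that kept the gene (adjusted p up to 0.0987).

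The pair Hspd1 and Hspe1 was also read as a ratio of counts within each library, which no scaling of libraries can change. The ratio was chosen after its values were seen. It was 0.415, 0.358, 0.378 and 0.35 in KOTP libraries 1 to 4 and 0.332, 0.333, 0.354 and 0.459 in KOTN. It was 0.727, 1.02, 0.516 and 0.635 in HetTP and 1.51, 0.464, 0.606 and 0.651 in HetTN, so that every KO library lay below every Het library. The ratio of KO over Het values was 0.533 in tdTomato-positive and 0.505 in tdTomato-negative cells (exact permutation test, two-sided, p = 0.0286 each, the smallest that 4 against 4 allows). Over the 16 tests of ratios among chaperone genes both adjusted p-values were 0.0915, and only with most tests at that smallest p could they have been under 0.05. As the ratio was chosen after its values were seen, these p-values are a description and add no support. Between KOTP and KOTN the ratio of ratios was 1.02, and between HetTP and HetTN 0.968 (exact permutation p = 0.771 and 0.943).

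Hspd1 and Hspe1 differ in coding length, 1719 against 306 bases. The median log2 fold change of all tested genes with 1001 to 2000 coding bases was -0.04 for KOTP against HetTP and 0.05 for KOTN against HetTN. It was 0.12 and 0.07 for genes of up to 500 bases.

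**Figure D3:**
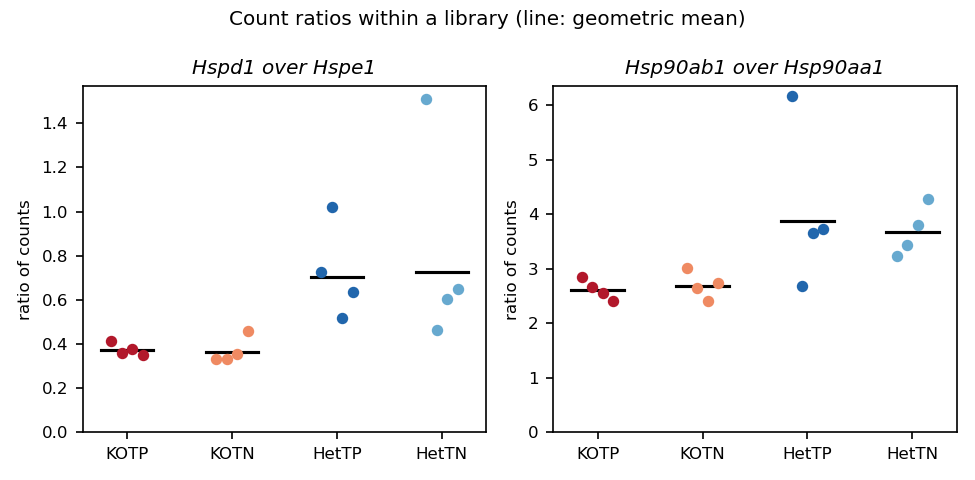
Ratio of deposited counts within each library, Hspd1 over Hspe1 on the left and Hsp90ab1 over Hsp90aa1 on the right, on linear axes. Points are libraries, lines geometric means of 4. All KO libraries lie below 0.46 and all Het libraries above 0.46 for Hspd1 over Hspe1, while the HSP90 ratio overlaps between KOTP and HetTP.

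Further genes of the chaperone network were taken from lists covering the HSP70 and HSP110 family, HSP90 with its cochaperones, J-domain proteins, exchange factors, cytosolic chaperonin and prefoldin, small heat shock proteins and regulators of HSF. Of 89 listed genes, 88 were found and 78 tested. In KOTP against KOTN, 0 were higher and 1 was lower, where 2.17% of all genes were called. The lower gene was Hspa2, an HSP70 best known from testis, at 8.21, 5.84, 8.45 and 8.54 CPM in KOTP and 16.3, 17.8, 24.8 and 25.2 CPM in KOTN. Its log2 fold change was -1.43 (SE 0.23, adjusted p = 0.000466). The groups did not overlap in KO cells, as for 7.22% of all tested genes, while HetTN libraries ran from 0 to 43.3 CPM. The fit of all 16 libraries, which called 2 genes in this comparison, lost Hspa2 (adjusted p = 1). That fit had a biological coefficient of variation of 0.687 over both genotypes, against 0.211 for the KO libraries alone. The median of the 78 genes was -0.03.

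HetTP against HetTN had no call by edgeR among the 78, with 4 at an unadjusted p under 0.05 and a median of 0.02. The difference of the tdTomato effects had none either, with 9 at an unadjusted p under 0.05. Of all 10687 genes tested, 663 in HetTP against HetTN and 993 in the difference had an unadjusted p under 0.05. KOTP against HetTP had 2 higher and 3 lower of the 78, where 10.2% of all genes were called, with a median of -0.13 against -0.02 over all genes tested. Hsp90ab1, the constitutive HSP90, stood at 1471.4 ± 43.2 CPM in KOTP and 2090.8 ± 118.8 CPM in HetTP (SD, n = 4), which gave -0.51 on the log2 scale (SE 0.10, adjusted p = 0.00194).

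Vcp, a segregase that extracts ubiquitinated proteins, was also lower at -0.51 (SE 0.12, adjusted p = 0.0076), as was Hspa4, an HSP110 relative, at -0.81 (SE 0.19, adjusted p = 0.00971). Higher were Pfdn5, a prefoldin subunit, at 0.76 (SE 0.16, adjusted p = 0.00462), and Dnajb12, a J-domain protein of the endoplasmic reticulum membrane, at 1.61 (SE 0.35, adjusted p = 0.00537).

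KOTN against HetTN had 2 higher and 4 lower of the 78, where 10.5% of all genes were called, with a median of -0.05 against 0.01. Hsp90ab1 stood at 1567.3 ± 114.8 CPM in KOTN and 2388.7 ± 217.7 CPM in HetTN (SD, n = 4), which gave -0.61 on the log2 scale (SE 0.10, adjusted p = 0.000581). Lower too were Ppp5c, an HSP90-bound phosphatase, at -0.79 (SE 0.19, adjusted p = 0.0118), Vcp at -0.47 (SE 0.12, adjusted p = 0.0152) and Bag1, an HSP70 exchange factor, at -0.71 (SE 0.22, adjusted p = 0.0415). Higher was Cdc37, which brings kinases to HSP90, at 0.62 (SE 0.14, adjusted p = 0.0076). Dnajb5 was at least 12.8-fold higher, from 27 counts in KOTN and 0 in HetTN (adjusted p = 0.0406). Among tdTomato-positive cells Dnajb5 went the other way, with 46 counts in KOTP and 242 in HetTP. That difference was not called (log2 fold change -1.68, SE 1.41, adjusted p = 0.599, edgeR). The calls of Vcp, Bag1 and Dnajb5 were lost in 2, 5 and 8 of the 8 leave-outs, at adjusted p up to 0.0539, 0.131 and 0.101, and under 1, 5 and 4 of the other settings, at up to 0.0617, 0.0892 and 0.303.

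The HSP90 paralogues were also compared as a ratio within each library. The count ratio of Hsp90ab1 over Hsp90aa1 was 2.4 to 2.84 in KOTP, 2.41 to 3.02 in KOTN, 2.68 to 6.16 in HetTP and 3.24 to 4.28 in HetTN. KO over Het, this ratio was 0.674 in tdTomato-positive cells (exact permutation p = 0.0571, adjusted p = 0.152). It was 0.733 in tdTomato-negative cells (exact permutation p = 0.0286, adjusted p = 0.0915). Both tests were two-sided and adjusted over the same 16 ratio tests. No exact p of 4 against 4 libraries falls below 0.0286. An adjusted p under 0.05 therefore needed most of the 16 tests at that floor, and the adjustment cannot decide whether the ratio differed. This ratio too was chosen after its values were seen, so its p-values are a description.

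**Figure D4:**
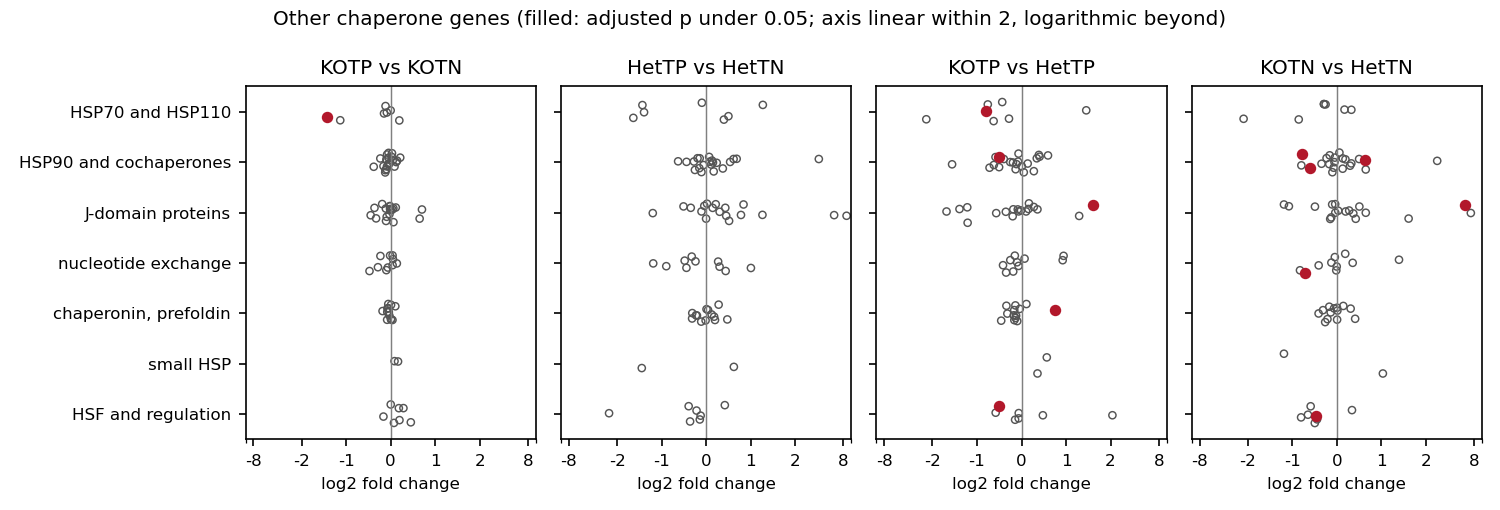
Log2 fold changes of the 78 tested genes of the wider chaperone network by family, members excluded, in the 4 comparisons; the axis is linear within 2 and logarithmic beyond. Filled points have an adjusted p under 0.05, and points beyond 2 include genes without counts in 1 group, whose position depends on the prior count. Calls number 1, 0, 5 and 6 from left to right.

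Immediate early genes, which dissociation and activation induce along with chaperones, were read beside them. Of 20 listed genes 13 were tested, and 3 of them were called in KOTP against KOTN, where 2.17% of all genes were. In KOTP against KOTN, Btg2, an antiproliferative factor, was higher (log2 fold change 0.36, SE 0.08, adjusted p = 0.0146), and the phosphatase Dusp1 (-1.16, SE 0.29, adjusted p = 0.0241) and the stress gene Gadd45b (-0.49, SE 0.12, adjusted p = 0.0345) were lower. These calls were lost in 4, 5 and 6 of 8 leave-outs, at adjusted p up to 0.0783, 0.224 and 0.141. All 3 were lost in the fit of 16 libraries, which called 2 genes in all in KOTP against KOTN. In HetTP against HetTN edgeR called none, with 2 at an unadjusted p under 0.05, as had 663 of all 10687 genes tested.

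In KOTP against HetTP, 2 of the 13 were higher and 3 lower, where 10.2% of all genes were called. Zfp36, which destabilises mRNAs, was lower at -1.58 (SE 0.19, adjusted p = 2.23e-05) and so was the transcription factor Egr1 at -3.37 (SE 0.88, adjusted p = 0.0173, up to 0.0771 with 1 library left out), while Btg2 was higher at 1.53 (SE 0.19, adjusted p = 3.51e-05). Fos was called higher (adjusted p = 0.0451) from 52 counts in KOTP and 0 in HetTP, a call lost in all 8 leave-outs (adjusted p 0.0705 to 0.0839). The only Het library with counts of Fos was HetTN library 2, at 1.82 CPM. Fos thus passed the filter through the KO libraries, and its inclusion favoured a higher value in KO cells. In KOTN against HetTN, Btg2 was higher at 1.57 (SE 0.19, adjusted p = 3.87e-05) and Zfp36 lower at -1.33 (SE 0.18, adjusted p = 0.000143). These were the 2 calls of the list, where 10.5% of all genes were called. The part of tissue handling in the chaperone values was not tested. In bulk samples such as these, fewer cells of a type and less RNA per cell cannot be told apart.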

How the data were processed

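RNA was sequenced from 16 libraries in 4 groups of 4. The submitters' processing notes name Trim Galore, STAR 2.2.0, featureCounts and the build mm10; strand, read pairs and multiply mapping reads are not given in the sources used here. The authors deposited raw counts over coding sequence, 1 table per genotype, per the file headers. Among counts of 1 to 100, 56.4% to 80.9% were even in a library (70.3% to 74.1% in KO libraries). If both reads of a pair were counted, counts are not independent, and the counting intervals and the 3-count floor are too narrow and too low. The 22680 entries per table were joined by symbol, without 4 entries of 2 duplicated names and 1 name without a partner, giving 22675 genes. Total counts per library ranged from 7748787 to 15742445; intervals cover counting error only.

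Counts were scaled by TMM over 16 libraries, filtered by group (filterByExpr) and tested in R 4.3.3 with edgeR 4.0.16, as a robust quasi-likelihood test with Benjamini-Hochberg adjustment over 10687 genes. Comparisons within a genotype used its 8 libraries, those between genotypes and the difference of effects used all 16. Groups came from the sample labels. Intervals of fold changes used the t distribution. The scripts were tested on simulated data with the spread of each genotype. Of 100 genes changed 4-fold, 86 were called in KOTP against KOTN and 24 in HetTP against HetTN. In KOTP against HetTP 47 were called, in KOTN against HetTN 52 and in the difference of effects 25. Of 100 genes changed 2-fold, the same comparisons called 60, 6, 15, 11 and 3. Genes left unchanged in the simulation but called numbered 6, 1, 16, 14 and 3 in the same order. They were most numerous in the comparisons between genotypes, which held all the calls of members. No 2 libraries of a group agreed within sampling noise. Same-numbered TP and TN libraries did not deviate together (correlations -0.009 to 0.087), so numbers were not taken as pairs. Also tried were upper quartile and RLE factors, no factor, other filters, DESeq2 1.42.0, voom in limma 3.58.1, a replicate block, another set of libraries in the fit, the Hspa1a and Hspa1b sum and leaving out each library.

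The members, gene lists and tests were chosen with earlier results of these data known. Named genes were all members, up to 8 called network genes and up to 4 called immediate early genes per comparison by smallest p; the count ratios and Hspb3 were chosen after their values were seen. Shared words of 50 bases were counted against GENCODE M21 transcripts.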

Additional observations from a re-analysis of the deposited data

Results flagged for a closer look

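A test for a library far from the 3 others of its group, by its gap over the range of the group, was planned for 32 sets of 4 values. Chance gives about 1 in 20 for normally distributed values. Bag3 in HetTP, at 0 in every library, could not be tested. Hspd1 in KOTN was marked with a value of 0.877: library 4 held 107.9 CPM and the others 84.7 to 87.5 CPM. Bag3 in HetTN was marked with 1.0: library 4 held 4 counts and the others 0. Any set with counts in 1 library only gets this value. Leaving these libraries out gave an adjusted p of 0.0521 for Hspd1 and 0.01 for Bag3 in KOTN against HetTN.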

How the results depend on the processing

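Calls of members numbered 0, 0, 2, 2 and 0 in KOTP against KOTN, HetTP against HetTN, KOTP against HetTP, KOTN against HetTN and the difference of effects. In KOTP against HetTP they were 5 with library totals and 1 each with upper quartile scaling, no filter, the stricter filter (which drops Bag3), voom, or only the 8 compared libraries. In KOTN against HetTN they were 1 each with upper quartile scaling, no filter, the stricter filter or voom, and 0 with the 8 libraries. Leaving out 1 library gave 1 to 2 and 0 to 1. Over all genes the counts were 232, 0, 1094, 1123 and 13. The fit of all 16 libraries gave 2 for KOTP against KOTN and 113 for HetTP against HetTN, DESeq2 52 for HetTP against HetTN and 194 for the difference, no filter 1 for HetTP against HetTN, library totals 6 and voom 7 for the difference. Leave-outs ranged over 121 to 383, 0 to 1, 725 to 1119, 621 to 1285 and 1 to 41. Higher genes made up 49.9% of the calls in KOTP against HetTP but 27.8% with library totals, and 53.9% and 43.4% in KOTN against HetTN.

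With a replicate block, although numbers did not pair the libraries, members called were 1 in KOTP against HetTP and 0 in KOTN against HetTN, and the difference of effects had 1 gene. Hsp90aa1 in KOTP against HetTP then read 0.027 and Hspe1 in the difference -0.018.

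Signs changed only for members that were not called. With library totals, Dnajb1 read 0.098 in HetTP against HetTN, Hsph1 -0.043 in KOTN against HetTN, and Dnajb1 -0.033, Hspe1 -0.144 and Hspd1 -0.073 in the difference. With voom, Hsph1 read -0.013 in KOTP against KOTN, Hspa8 -0.002 in HetTP against HetTN, Hsp90aa1 0.106 in KOTP against HetTP, and Hspe1 -0.012 and Bag3 -0.277 in the difference; upper quartile scaling gave Hsp90aa1 0.064 in KOTP against HetTP. Leave-outs ranged, in KOTP against KOTN, from -0.095 to 0.137 for Hsph1, -0.025 to 0.116 for Hspe1, -0.097 to 0.01 for Hsp90aa1 and -0.056 to 0.005 for Hspa8. In HetTP against HetTN they ranged from -0.267 to 0.257 for Dnajb1, -0.076 to 0.145 for Hspe1, -0.227 to 0.271 for Hspd1, -0.385 to 0.006 for Hsp90aa1 and -0.123 to 0.209 for Hspa8. In KOTP against HetTP Hsp90aa1 ran from -0.207 to 0.184, and in KOTN against HetTN Hsph1 from -0.147 to 0.327. In the difference the ranges were -0.176 to 0.348 for Dnajb1, -0.082 to 0.139 for Hspe1, -0.188 to 0.31 for Hspd1, -1.538 to 1.969 for Bag3, -0.047 to 0.344 for Hsp90aa1 and -0.227 to 0.106 for Hspa8. The cause of these changes was not tested. Bag3 had at most 42 counts in a library, which limits its values.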

Other observations

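Hspb3, a small heat shock protein gene best known from muscle, was outside the lists and was singled out after its values were seen. It stood at 1.28, 0.0, 0.228 and 1.85 CPM in KOTP and 7.2, 6.8, 7.99 and 6.03 CPM in KOTN, or -2.96 on the log2 scale (SE 0.59, adjusted p = 0.00468, edgeR), and all 8 Het libraries were at 0. Every leave-out kept the call, with adjusted p up to 0.0244. The fit of all 16 libraries, which called 2 genes in KOTP against KOTN, lost it (adjusted p = 1). As Hspb3 was picked for these same values, its p-values and leave-outs are a description and add no support.

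The tested members did not share 1 profile within a genotype. Over 21 pairs of 7 members, without Bag3, and 8 libraries that share their scaling, the median Pearson r of deviations from group means was -0.1 in KO (range -0.73 to 0.84, 8 pairs above 0) and 0.28 in Het libraries (-0.66 to 0.91, 14 above 0). The highest pair was Hspe1 with Hsp90aa1 in KO and Hsp90aa1 with Hspa8 in Het libraries. Genes whose deviations were most like the mean of 7 members (without Hsf1) were Vsir (r 0.98), Bloc1s6, Vti1a, Timmdc1 (0.95 each) and Ahcyl2 (0.94) among 7131 genes in KO libraries. In Het libraries they were Ndufs4 (0.98), Eif4a1 (0.97), Atp5b and Skp1a (0.96 each) and Aimp2 (0.95) among 6687. These are the highest of many values over 8 libraries and are given as a description.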
